A study of Mus musculus with 45 samples.

Results

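The proteasome subunit genes are the 48 genes, of 55367 gene symbols in the count table, whose symbol is Psma, Psmb, Psmc, Psmd, Psme, Psmf or Psmg followed by a number. The rule uses the gene name alone. Among them the 5 immunoproteasome genes (Psmb8, Psmb9, Psmb10, Psme1 and Psme2) were set against the other 43, of which 31 form the constitutive core, the subunits that build the standard particle. RNA was measured by 3' tag sequencing in 45 libraries, 3 in each of 15 groups, from female Balb/c mice on day 14. Mice received an orthotopic injection of 2000000 cells of 67NR, 4T07 or 4T1, and Control mice were tumor-free. These are established triple-negative mouse mammary carcinoma lines that stand for different stages of metastasis. 67NR does not spread, 4T07 is invasive but considered nonmetastatic, and 4T1 is metastatic. Lungs, spleens and a scaffold were taken from all 4 kinds of mice, and primary tumors from the 3 inoculated kinds. The scaffold is a porous polycaprolactone implant placed under the skin at 7 to 8 weeks of age, 2 weeks before inoculation, and Control mice carried it too. Each line is 1 cell line grown in one host strain, so a difference between tumors is a difference between lines, and the labels do not link tissues to a mouse.

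As background, the proteasome is the protease that degrades ubiquitin-tagged proteins and supplies most peptides that MHC class I molecules present to CD8+ T cells. Its barrel, the 20S core, has outer rings of alpha subunits (Psma genes) and inner rings of beta subunits (Psmb genes), and 3 beta subunits cut: Psmb6 after acidic residues, Psmb7 after basic residues and Psmb5 after hydrophobic residues. The 19S cap (Psmc ATPases and Psmd non-ATPases) recognises and unfolds substrates, and Psmg genes and Psmd5, Psmd9 and Psmd10 help assembly. Under interferon-gamma, and constitutively in many lymphoid cells, Psmb9, Psmb10 and Psmb8 replace Psmb6, Psmb7 and Psmb5 in new particles, and Psme1 and Psme2 (PA28 alpha and beta) form a cap that promotes peptide release. Psme3 and Psme4 are nuclear activators, Psmf1 encodes the regulator PI31, Psma8 is a testis subunit and Psmb11 belongs to the cortical epithelium of the thymus.

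The stretches of 250 bases before the start sites of the 5 immunoproteasome genes and of Psmb6, the constitutive counterpart of Psmb9, are shown because these genes moved in opposite directions between tumors. They are RefSeq sequences of build GRCm38.p6, at chr17:34197945-34198194 (plus strand) for Psmb8, chr17:34187331-34187580 (minus) for Psmb9, chr8:105938393-105938642 (minus) for Psmb10, chr14:55578244-55578493 (plus) for Psme1, chr14:55591022-55591271 (minus) for Psme2 and chr11:70525107-70525356 (plus) for Psmb6. Each is written 5' to 3' toward its gene. Capitals mark a match to the interferon-gamma activated site, GAS, which lies 97 bases before the Psmb8 start.
Psmb8: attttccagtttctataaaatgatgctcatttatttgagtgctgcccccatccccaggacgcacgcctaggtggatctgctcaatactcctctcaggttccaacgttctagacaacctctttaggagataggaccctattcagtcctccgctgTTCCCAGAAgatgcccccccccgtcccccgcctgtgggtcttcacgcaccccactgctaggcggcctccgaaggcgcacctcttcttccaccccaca
Psmb9: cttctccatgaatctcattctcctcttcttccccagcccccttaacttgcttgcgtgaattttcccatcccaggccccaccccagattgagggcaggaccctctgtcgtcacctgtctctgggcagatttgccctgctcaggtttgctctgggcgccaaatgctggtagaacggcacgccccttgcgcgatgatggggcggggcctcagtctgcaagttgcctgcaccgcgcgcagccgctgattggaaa
Psmb10: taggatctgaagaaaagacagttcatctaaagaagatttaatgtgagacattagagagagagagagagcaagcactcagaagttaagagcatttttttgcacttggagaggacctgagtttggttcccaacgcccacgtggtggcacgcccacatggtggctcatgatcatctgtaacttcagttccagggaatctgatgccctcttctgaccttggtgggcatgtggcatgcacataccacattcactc
Psme1: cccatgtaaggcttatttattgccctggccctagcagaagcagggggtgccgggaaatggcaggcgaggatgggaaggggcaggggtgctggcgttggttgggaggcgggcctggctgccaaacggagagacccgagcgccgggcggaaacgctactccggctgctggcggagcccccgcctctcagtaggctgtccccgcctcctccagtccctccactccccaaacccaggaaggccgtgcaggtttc
Psme2: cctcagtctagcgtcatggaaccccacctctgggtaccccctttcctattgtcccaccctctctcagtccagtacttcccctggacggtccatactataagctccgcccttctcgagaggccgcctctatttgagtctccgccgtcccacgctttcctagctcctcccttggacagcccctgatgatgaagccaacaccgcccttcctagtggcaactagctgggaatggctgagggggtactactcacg
Psmb6: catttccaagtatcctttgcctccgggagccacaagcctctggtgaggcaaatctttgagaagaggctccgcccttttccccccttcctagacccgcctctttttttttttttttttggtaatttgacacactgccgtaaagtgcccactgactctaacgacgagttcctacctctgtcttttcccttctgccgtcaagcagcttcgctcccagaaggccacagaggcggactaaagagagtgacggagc

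Promoter windows were found for 40 of the 48 members, some with more than 1 start site, and 4 short motifs were searched on both strands. The GAS motif (TTCNNNGAA) occurred in 1 of 6 windows of the immunoproteasome genes (16.7%), in 1 of 37 windows of other members (2.70%) and in 7.02% of all 32851 windows of that length. The core of the interferon-stimulated response element (GAAA, any 2 bases, GAAA) occurred in 0 of 6 and 3 of 37 windows (8.11%), against 2.98% of all windows. The core of the antioxidant response element, TGANNNNGC, which NRF1 and NRF2 bind, occurred in 2 of 6 windows (33.3%) and 15 of 37 (40.5%), against 35.2% of all. The CCAAT box occurred in 1 of 6 (16.7%) and 13 of 37 (35.1%), against 33.8% of all. A match is a description of letters and not of a bound site. Psmb9 shares its promoter region with Tap1, a peptide transporter gene of MHC class I loading that is read in the other direction, and their start sites lie 226 bases apart on chromosome 17.

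Library totals ran from 3491888 to 8175380 counts with a median of 5149589, and levels are given in CPM, counts per 1000000 counts of a library's total. In 3' tag data a transcript gives reads at its end whatever its length, but how well each end is captured differs between genes, so levels are compared across libraries and not between genes. 47 of the 48 members passed the low-count filter (over 10 counts summed over a tissue) in every tissue. Psmb11 did not, with 0 counts in 39 of 45 libraries and at most 2 counts in any. Psma8 had 1 to 35 counts a library and Psmb7 7 to 31 counts (median 3.31 CPM), so values for these 2 genes are coarse. Psmb5 had 12 to 108 counts (median 9.27 CPM), while Psmb6 had 456 to 2978. Psme2 has a near-identical copy, Psme2b, that is listed apart, and the counting could split reads between them, so results with both added up are given where they differ. The 4 lung epithelium genes (Sftpc, Sftpb, Scgb1a1, Ager) summed to 26282 to 29840 CPM in Control lungs and 3.92 to 8.62 CPM in Control spleens, while the 4 B cell genes summed to 640.5 to 803.6 CPM in Control spleens. Outside the lungs the lung epithelium sum reached its highest values in 67NR scaffolds (56.0 to 336.6 CPM) and 67NR tumors (45.7 to 322.8 CPM). It was 52.6 to 200.7 CPM in Control scaffolds and 34.7 to 75.0 CPM in 4T07 spleens. The source of these counts was not tested. In the 67NR tumors the 4 epithelial markers (Epcam, Krt8, Krt18, Cdh1) summed to 11.3 to 26.6 CPM, against 146.9 to 211.2 CPM in 4T07 and 920.4 to 1056.7 CPM in 4T1 tumors. In bulk tissue, more cells of a type and more RNA per cell cannot be told apart.

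All 5 immunoproteasome genes were higher in 4T07 than in 67NR tumors, by 2.03-fold (Psmb10) to 7.44-fold (Psmb9). Of the 31 core subunits 14 were lower, 4 were higher and the rest were not called. Of all genes 22.9% were higher and 18.5% lower. Psmb8, the counterpart of Psmb5, stood at 36.8, 32.2 and 27.9 CPM in the 67NR tumors, at 249.7, 270.2 and 165.7 CPM in the 4T07 tumors and at 154.7, 115.6 and 146.8 CPM in the 4T1 tumors. The 3 lines did not overlap, with 4T07 highest and 67NR lowest. Psmb9 stood at 16.1, 27.1 and 29.4 CPM in 67NR, at 212.5, 263.8 and 168.5 CPM in 4T07 and at 60.9, 83.0 and 138.4 CPM in 4T1 tumors, again without overlap.

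Psmb10, the counterpart of Psmb7, stood at 64.8, 48.4 and 51.7 CPM in 67NR, at 146.7, 142.4 and 108.4 CPM in 4T07 and at 136.4, 107.6 and 123.0 CPM in 4T1 tumors, so that 4T07 and 4T1 overlapped. Psme1 stood at 55.9, 82.8 and 78.8 CPM in 67NR, at 238.2, 273.1 and 257.1 CPM in 4T07 and at 188.5, 158.7 and 211.1 CPM in 4T1 tumors. Psme2 stood at 40.0, 43.1 and 47.4 CPM, at 179.2, 148.0 and 126.4 CPM, and at 109.5, 81.2 and 90.4 CPM. For Psme1 and Psme2 the 3 lines did not overlap.

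**Figure D1:**
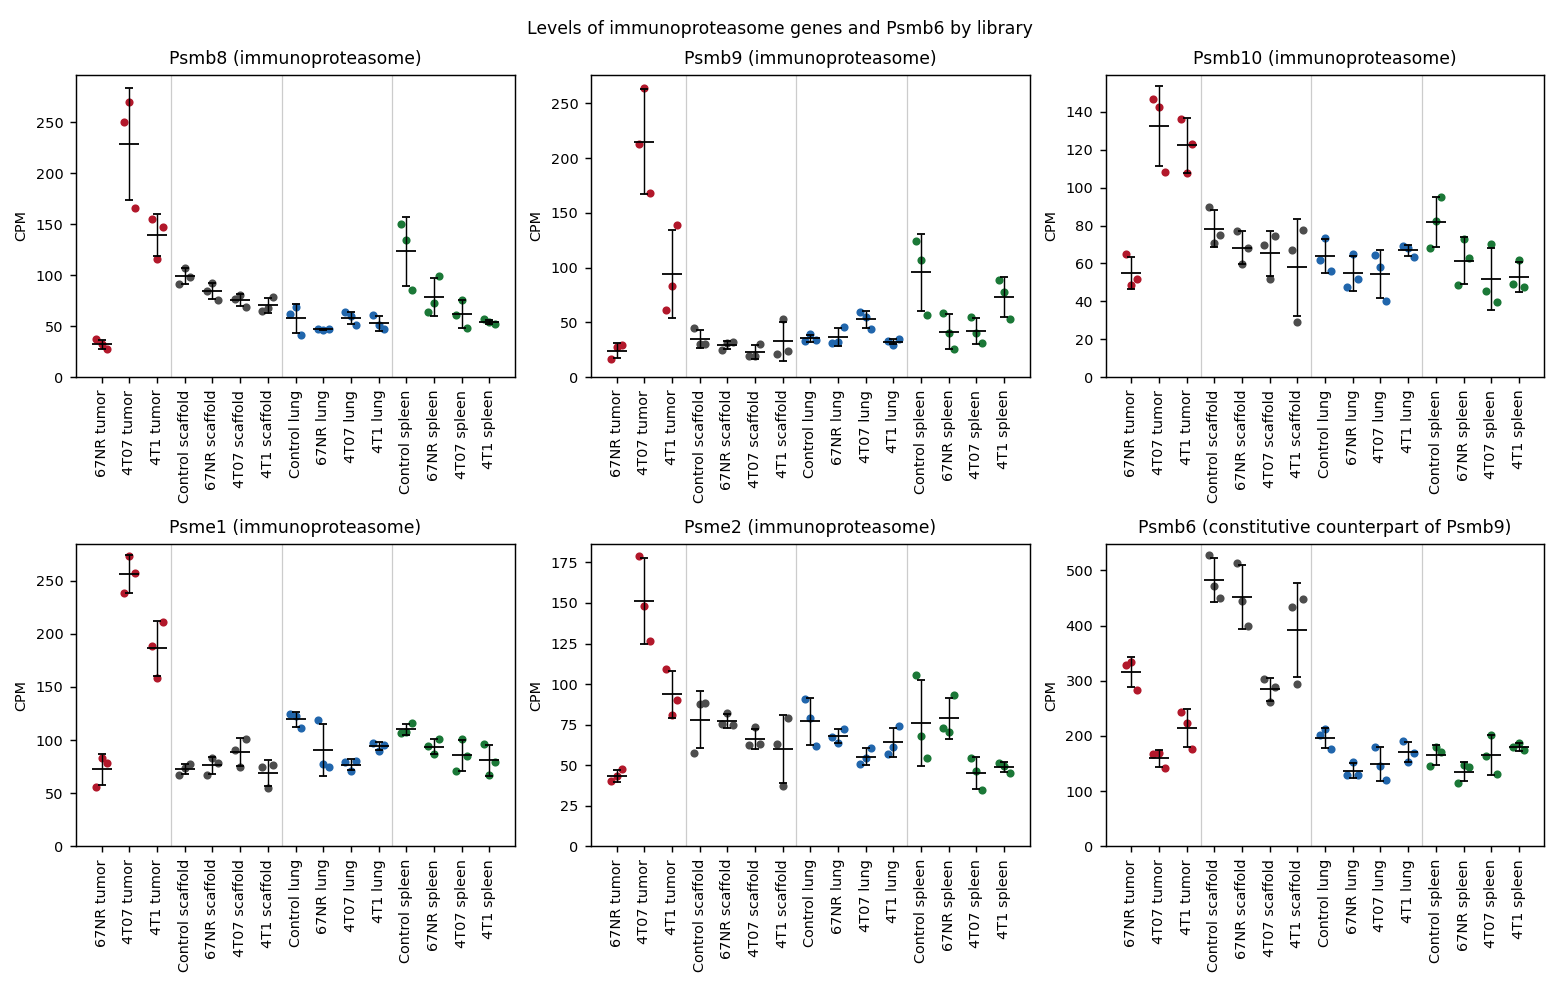
Levels in CPM (vertical axis) of the 5 immunoproteasome genes and of Psmb6, in 45 libraries by group (horizontal axis). Points are libraries, the line is the group mean and bars are SD (n = 3). The 4T07 tumors hold the highest Psmb8, at 165.7 to 270.2 CPM, and the lowest Psmb6 of the tumors, at 142.2 to 169.1 CPM, while scaffolds hold the highest Psmb6, at 262.2 to 527.5 CPM.

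Between 4T07 and 67NR tumors 11 of 47 members were called higher and 18 lower at an adjusted p under 0.05, which is 23.4% and 38.3% of members, where 22.9% of the 20508 genes tested were higher and 18.5% lower. All 5 immunoproteasome genes were among the higher. The log2 fold change was 2.90 ± 0.31 (SE) for Psmb9 (adjusted p = 3.38e-06), 2.57 ± 0.21 for Psmb8 (2.65e-07), 1.57 ± 0.19 for Psme1 (1.41e-05), 1.55 ± 0.18 for Psme2 (9.27e-06) and 1.02 ± 0.17 for Psmb10 (0.000251), with n = 3 a group. The median over these 5 genes was 1.57, over the other 42 members -0.40 and over all genes tested 0.16.

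Among the constitutive catalytic subunits 2 of 3 were lower. Psmb6 stood at 328.4, 333.7 and 284.0 CPM in 67NR, at 168.0, 169.1 and 142.2 CPM in 4T07 and at 243.8, 222.8 and 176.6 CPM in 4T1 tumors. Between 4T07 and 67NR this made -1.23 ± 0.17 on the log2 scale (adjusted p = 3.24e-05), and the groups did not overlap. Psmb5 was also lower in 4T07, by -1.20 ± 0.27 (adjusted p = 0.0021), at 10.6, 7.98 and 8.75 CPM against 14.5, 21.8 and 16.4 CPM. Psmb7, at 3.67 to 4.20 CPM in 67NR and 1.81 to 3.95 CPM in 4T07 tumors, gave -0.57 ± 0.44 (adjusted p = 0.318) and did not pass.

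The 2 members that fell furthest were the beta ring subunits Psmb3 and Psmb4. Psmb3 stood at 223.1, 231.1 and 202.7 CPM in 67NR against 75.3, 67.7 and 80.4 CPM in 4T07 tumors (log2 fold change -1.81 ± 0.15, adjusted p = 4.09e-07), and Psmb4 at 663.8, 742.2 and 734.3 CPM against 301.8, 354.0 and 275.7 CPM (-1.45 ± 0.17, adjusted p = 9.87e-06). By role, 3 of 4 non-catalytic beta subunits were lower, 2 of 7 alpha subunits were lower and 2 higher, 2 of 6 ATPases were lower and 1 higher, and 5 of 11 non-ATPase subunits were lower and 1 higher. The exception among the non-ATPase subunits was Psmd7, a scaffold of the cap's deubiquitinase pair, at 94.9, 74.4 and 82.2 CPM against 227.8, 179.8 and 197.3 CPM (1.02 ± 0.17, adjusted p = 0.000182). Of the 3 chaperones of 19S assembly 2 were higher, Psmd10 by 0.73 ± 0.19 (adjusted p = 0.00716), and both nuclear activators were lower. Over the 31 core genes 4 were higher and 14 lower, with a median of -0.48.

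The 4T1 tumors showed the same 5 immunoproteasome genes above 67NR. Between 4T1 and 67NR tumors 10 members were higher and 10 lower, against 16.7% and 14.8% of all genes. The log2 fold change was 1.91 ± 0.21 for Psmb8 (adjusted p = 4.47e-06), 1.76 ± 0.30 for Psmb9 (0.000362), 1.16 ± 0.19 for Psme1 (0.00026), 0.96 ± 0.17 for Psmb10 (0.000547) and 0.91 ± 0.18 for Psme2 (0.00122). Their median was 1.16, beside -0.14 over the other 42 members and 0.09 over all genes. These 10 calls of the 5 genes in 4T07 and in 4T1 against 67NR held when any 1 library was left out. They also held under every other setting tried that had no fold requirement. With a fold over 2 required as well, Psmb10 (0.96) and Psme2 (0.91) in 4T1 against 67NR tumors fell short.

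Other members were called in both directions between 4T1 and 67NR tumors. Psmb6 was lower by -0.76 ± 0.16 (adjusted p = 0.00226), Psmb3 by -0.98 ± 0.15 (0.000118) and the non-ATPase subunit Psmd13 by -0.98 ± 0.19 (0.000993). Psmb5 gave -0.59 ± 0.26 (0.0933) and Psmb7 -0.31 ± 0.43 (0.626), neither past the threshold, though Psmb5 passed without 67NR tumor 19 (0.0392) or 4T1 tumor 43 (0.0456). Psmd7 was higher by 1.00 ± 0.17 (0.00026), at 201.9, 163.8 and 211.3 CPM, and the non-ATPase subunit Psmd11 by 0.81 ± 0.19 (0.00443). Both comparisons share the 67NR tumors.

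Set directly against 4T07, the 4T1 tumors had lower Psmb9 (log2 fold change -1.14 ± 0.28, adjusted p = 0.0121), Psmb8 (-0.66 ± 0.19, 0.0294) and Psme2 (-0.64 ± 0.17, 0.0223), while Psme1 (-0.41 ± 0.18, 0.157) and Psmb10 (-0.06 ± 0.17, 0.849) did not pass. In all, 5 members were higher and 3 lower, against 7.69% and 6.98% of all genes. The 3 lower calls stood near the threshold. The Psmb8 call was lost without 4T07 tumor 31 (adjusted p = 0.111) or 32 (0.118) and without 4T1 tumor 43 (0.055), 44 (0.146) or 45 (0.0636). The Psmb9 call was lost without 4T07 tumor 32 (0.0525) and without 4T1 tumor 43 (0.0707) or 44 (0.0661), and the Psme2 call without 4T07 tumor 31 (0.132) or 32 (0.0515) and without 4T1 tumor 44 (0.121) or 45 (0.0826). No direction turned.

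The 5 members higher in 4T1 than in 4T07 tumors were constitutive. Psmb2 was higher by 1.04 ± 0.25 (adjusted p = 0.0118), at 49.9, 56.0 and 58.7 CPM against 28.7, 29.4 and 24.6 CPM, and Psmb4 by 0.86 ± 0.17 (0.00304), at 597.4, 581.7 and 455.4 CPM against 301.8, 354.0 and 275.7 CPM. Psmb3 (0.82), Psmd3 (0.77) and Psmd6 (0.71) made up the rest, on the log2 scale. Psmb6 gave 0.47 ± 0.16 (0.064, and 0.0361 without 4T1 tumor 45), Psmb5 0.61 ± 0.26 (0.138) and Psmb7 0.26 ± 0.43 (0.736).

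The immunoproteasome index, the mean log2(CPM + 1) of the 5 genes minus that of the 31 core genes, puts both sides in 1 value per library. It is a description and was not tested. It was -1.45, -1.45 and -1.40 in the 67NR tumors, 0.95, 1.09 and 0.76 in the 4T07 tumors and -0.02, -0.16 and 0.13 in the 4T1 tumors. The 67NR tumors had the lowest values of all 45 libraries and the 4T07 tumors the highest. In the other tissues it lay between -1.04 and 0.42. The group mean was 0.94 ± 0.17 (SD, n = 3) in 4T07, -0.02 ± 0.14 in 4T1 and -1.43 ± 0.03 in 67NR tumors.

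**Figure D2:**
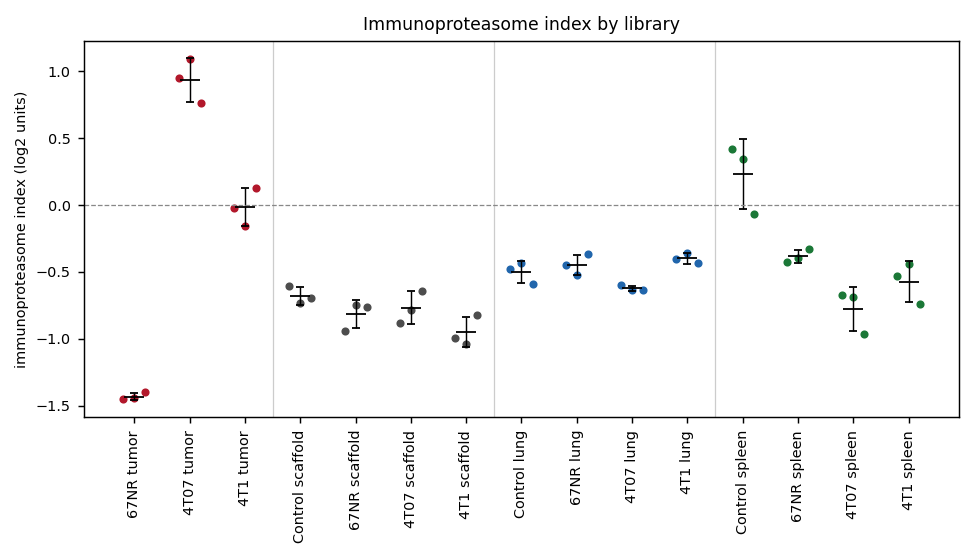
Immunoproteasome index in log2 units (vertical axis) in 45 libraries by group (horizontal axis). Points are libraries, lines are group means, bars are SD (n = 3), and the dashed line marks 0. The 4T07 tumors sit at 0.76 to 1.09 and the 67NR tumors at -1.45 to -1.40, with scaffolds and lungs between -1.04 and -0.36.

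The single pair of Psmb9 and Psmb6, which replace one another in the particle, was compared across libraries as the ratio of their counts. The ratio was 0.0491 to 0.103 in 67NR tumors, 1.18 to 1.56 in 4T07 tumors and 0.25 to 0.784 in 4T1 tumors. It was 0.331 to 0.85 in Control spleens and 0.0485 to 0.181 in scaffolds. The ratio of Psmb8 to Psmb5 counts was 1.47 to 2.54 in 67NR, 18.9 to 33.8 in 4T07 and 9.2 to 12.1 in 4T1 tumors. The ratio of Psmb10 to Psmb7 counts was 11.5 to 16.1 in 67NR, 27.4 to 81.2 in 4T07 and 21.9 to 67.8 in 4T1 tumors, so that 4T07 and 4T1 overlapped in this pair, which is coarse because Psmb7 has few counts.

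**Figure D3:**
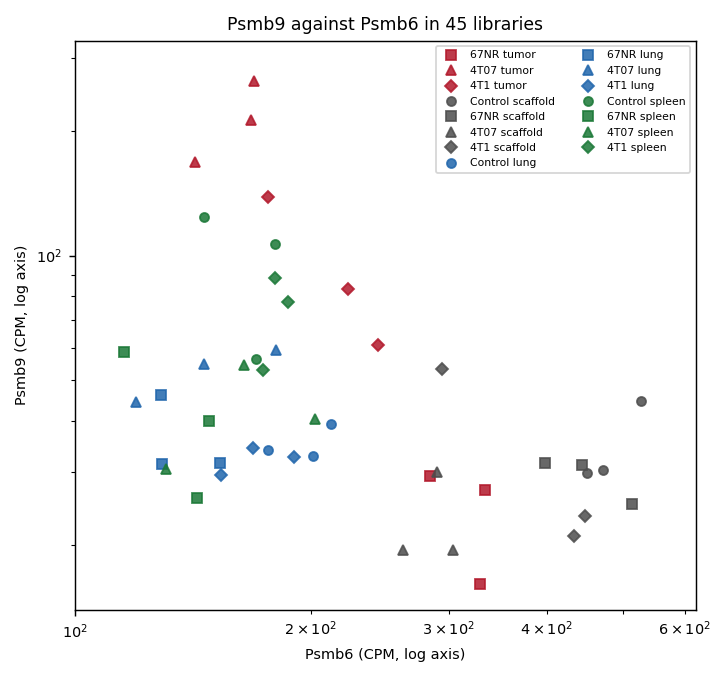
Psmb9 (vertical axis) against Psmb6 (horizontal axis), both in CPM on log axes, in 45 libraries, with shapes for the kind of mouse and colours for the tissue. The 3 4T07 tumors have Psmb9 to Psmb6 ratios of 1.18 to 1.56, and the 3 67NR tumors ratios of 0.0491 to 0.103.

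The genes that load and regulate MHC class I moved with the immunoproteasome in the 4T07 tumors. Of 32 listed genes of MHC class I loading and interferon signalling, 27 were higher in 4T07 than in 67NR tumors and 0 lower, or 84.4% beside 22.9% of all genes, with a median log2 fold change of 1.39 beside 0.16 over all genes. Tap2, the partner of Tap1, was higher by 4.17 ± 0.59 (adjusted p = 5.68e-05), at 104, 169.5 and 42.3 CPM against 2.69, 1.68 and 10.4 CPM. The interferon-induced GTPases Gbp4 and Iigp1 were higher by 3.64 ± 0.36 (1.78e-06) and 3.57 ± 0.38 (3.83e-06). In 4T1 against 67NR tumors 10 were higher and 2 lower, where 16.7% of all genes were higher and 14.8% lower. Tap2 was higher by 3.36 ± 0.59 (0.000474), Gbp2 by 1.35 ± 0.31 (0.00361) and the interferon regulatory factor Irf1 by 1.19 ± 0.19 (0.000213). Isg15 (-1.23 ± 0.24, 0.00116) and Cxcl10 (-1.20 ± 0.30, 0.00702) were the lower ones.

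Between 4T1 and 4T07 tumors 20 of the 32 genes were lower and 0 higher, where 6.98% of all genes were lower and 7.69% higher. Ifng, interferon-gamma itself, had 5, 6 and 2 counts in the 67NR tumors, 30, 25 and 14 in the 4T07 tumors and 3, 1 and 3 in the 4T1 tumors. These few counts do not order the 67NR and 4T1 tumors. Any part of Ifng in the levels of the 5 immunoproteasome genes was not tested. Against 4T07, Ifng in 4T1 tumors gave -3.25 ± 0.53 on the log2 scale (adjusted p = 0.000714). On counts summed over each line's tumors and scaled by library totals, the ratio of 4T1 to 4T07 was 0.0951. Its exact 95% counting interval, 0.0369 to 0.207, covers counting error alone and not the spread between tumors. Gbp4 was lower by -2.70 ± 0.34 (7.39e-05) and Iigp1 by -2.69 ± 0.37 (0.000159). The summed level of the list was 5040 to 6218 CPM in 67NR, 13947 to 17115 CPM in 4T07 and 6610 to 8955 CPM in 4T1 tumors.

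Tap1, the neighbour of Psmb9, was called higher in 4T07 tumors and not in 4T1 tumors. It stood at 60.7, 41.1 and 30.2 CPM in 67NR, at 349.2, 328.0 and 311.3 CPM in 4T07 and at 64.4, 45.7 and 77.9 CPM in 4T1 tumors. Against 67NR it gave 2.66 ± 0.24 in 4T07 (adjusted p = 7.22e-07) and 0.32 ± 0.23 in 4T1 (0.32) on the log2 scale, where Psmb9 gave 2.90 and 1.76. Whether the 2 genes differ in their change was not tested. In 4T07 lungs Tap1 was higher than in Control lungs by 2.12 ± 0.16 (1.9e-09), and Psmb9 by 0.64 ± 0.16 (0.00325).

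The partners of the proteasome were called in both directions. Of 24 listed genes of ubiquitin supply, substrate delivery and proteasome regulation, 4 were higher and 8 lower in 4T07 than in 67NR tumors, or 16.7% and 33.3% beside 22.9% and 18.5% of all genes, with a median of -0.33. Usp14, the deubiquitinase bound to the 19S cap, was lower by -2.56 ± 0.16 (adjusted p = 2.44e-08), at 81.5, 66.6 and 69.1 CPM against 373.0, 350.8 and 356.5 CPM, and the ubiquitin fusion gene Rps27a by -1.47 ± 0.40 (0.00877). Nfe2l1, which encodes the activator of proteasome genes NRF1, was higher by 0.74 ± 0.17 (0.00296), as were Ddi2, the protease that releases it (0.76 ± 0.16, 0.00128), and Uchl5 (0.60 ± 0.18, 0.0147).

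Against 67NR, 6 of these partners were higher in 4T1 tumors and 4 lower, or 25% and 16.7% beside 16.7% and 14.8% of all genes. Usp14 was lower there by -2.57 ± 0.16 (adjusted p = 1.19e-08) and Ubb by -0.995 ± 0.173 (0.000426). Ddi2 (0.74 ± 0.16, 0.00186), Zfand5 (0.66 ± 0.19, 0.0135) and Nfe2l1 (0.65 ± 0.17, 0.00881) led the higher ones. Between 4T1 and 4T07 tumors 2 were higher, beside 7.69% of all genes. They were Ubqln1 (1.26 ± 0.16, 6.34e-05) and Vcp (0.48 ± 0.15, 0.0389).

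Other measures moved with the tumor line as well. All 4 epithelial and all 4 fibroblast markers were higher in 4T07 and in 4T1 than in 67NR tumors, and the fibroblast sum was 605.8 to 815.0 CPM in 67NR, 3504 to 5402 CPM in 4T07 and 4187 to 7035 CPM in 4T1. Of pan-immune markers 2 of 4 were higher in each, with sums of 445.2 to 620.3, 771.6 to 1092.8 and 630.5 to 863.6 CPM. In 4T07 against 67NR tumors 3 of 5 T cell, 3 of 4 B cell, 3 of 4 dendritic cell, 6 of 6 neutrophil and 4 of 5 erythroid markers were higher, and 3 of 4 NK cell and 3 of 5 proliferation markers were lower. In 4T1 against 67NR tumors 1 of 5 T cell, 1 of 4 B cell and 1 of 6 neutrophil markers were higher. There 3 of 4 NK cell, 3 of 5 macrophage and 3 of 5 proliferation markers were lower, and of 4 dendritic cell markers 2 were higher and 1 lower. Neutrophil markers summed to 15.2 to 357.8 CPM in 67NR, 966.6 to 5057 CPM in 4T07 and 489.9 to 772.2 CPM in 4T1 tumors, and no marker of these lists was at 0 in all libraries of a tumor group. The 85 ribosomal protein genes took 7.62 to 8.82% of counts in 67NR, 4.26 to 5.89% in 4T07 and 5.24 to 7.31% in 4T1 tumors. In 4T1 against 4T07 tumors 3 of 5 macrophage markers were lower and 1 higher, at sums of 1377 to 1676 CPM against 1873 to 2451 CPM. There 4 of 6 neutrophil, 4 of 5 erythroid and 2 of 4 NK cell markers were lower too, the erythroid sum being 238 to 256.4 CPM against 627.4 to 4297 CPM, and 4 of 4 epithelial and 2 of 5 proliferation markers were higher. The part of these differences in the results was not tested.

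The 4T1 to 4T07 difference of Psmb9 was not the same in tumors as in scaffolds and spleens. In a test of the difference between tissues (an interaction term over 24 libraries, called at an adjusted p under 0.10), log2(4T1/4T07) of Psmb9 was lower in tumor than in scaffold by -1.62 ± 0.41 (adjusted p = 0.0211) and lower than in spleen by -1.94 ± 0.41 (0.00389). Against lung it was -0.41 ± 0.40 (0.541). Psme1 (-0.68 ± 0.26, 0.0682) and Psme2 (-0.83 ± 0.31, 0.0629) differed between tumor and lung, but both calls were lost when single libraries were left out, at adjusted p-values of 0.101 to 0.175 for Psme1 (without 4T07 lung 25 or 26, 4T07 tumor 32 or 33, 4T1 lung 37 or 39, or 4T1 tumor 44) and 0.106 to 0.157 for Psme2 (without 4T07 lung 25 or 26, 4T07 tumor 31, 4T1 lung 39, or 4T1 tumor 44 or 45). Psmb8 and Psmb10 did not pass in any of the 3 tests, at adjusted p-values of 0.219 to 0.409 and 0.589 to 1.0, though Psmb8 against lung passed without 4T07 tumor 33 (0.0819).

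In all, 1 member of 47 differed between tumor and scaffold, where 5.40% of all 24969 genes did, 23 between tumor and lung (24.9% of genes) and 7 between tumor and spleen (7.33%). Between tumor and lung, 21 of the 23 were constitutive or accessory genes with a higher log2(4T1/4T07) in tumor, led by Psme3 (2.20 ± 0.29, adjusted p = 2.93e-06) and Psmb2 (2.16 ± 0.46, 0.00103), and Psmb7 gave 1.38 ± 0.53 (0.0658), lost without 4T07 lung 26 (0.176), 4T07 tumor 31 (0.17), 4T1 lung 38 (0.145) or 4T1 tumor 45 (0.234). Between tumor and spleen Psmd11 (1.07 ± 0.24, 0.00783) and the ATPase Psmc1 (0.97 ± 0.30, 0.0633) led the higher ones, the latter lost at adjusted p-values of 0.105 to 0.225 without 4T07 spleen 29 or 30, 4T07 tumor 31 or 32, 4T1 spleen 41 or 42, or 4T1 tumor 43 or 45, and the chaperone Psmg3 was lower (-1.19 ± 0.31, 0.0223). Psmb5 and Psmb6 were not called in any of the 3 tests, except Psmb5 against lung (0.996 ± 0.434, 0.113) without 4T1 lung 37 (0.058).

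**Figure D4:**
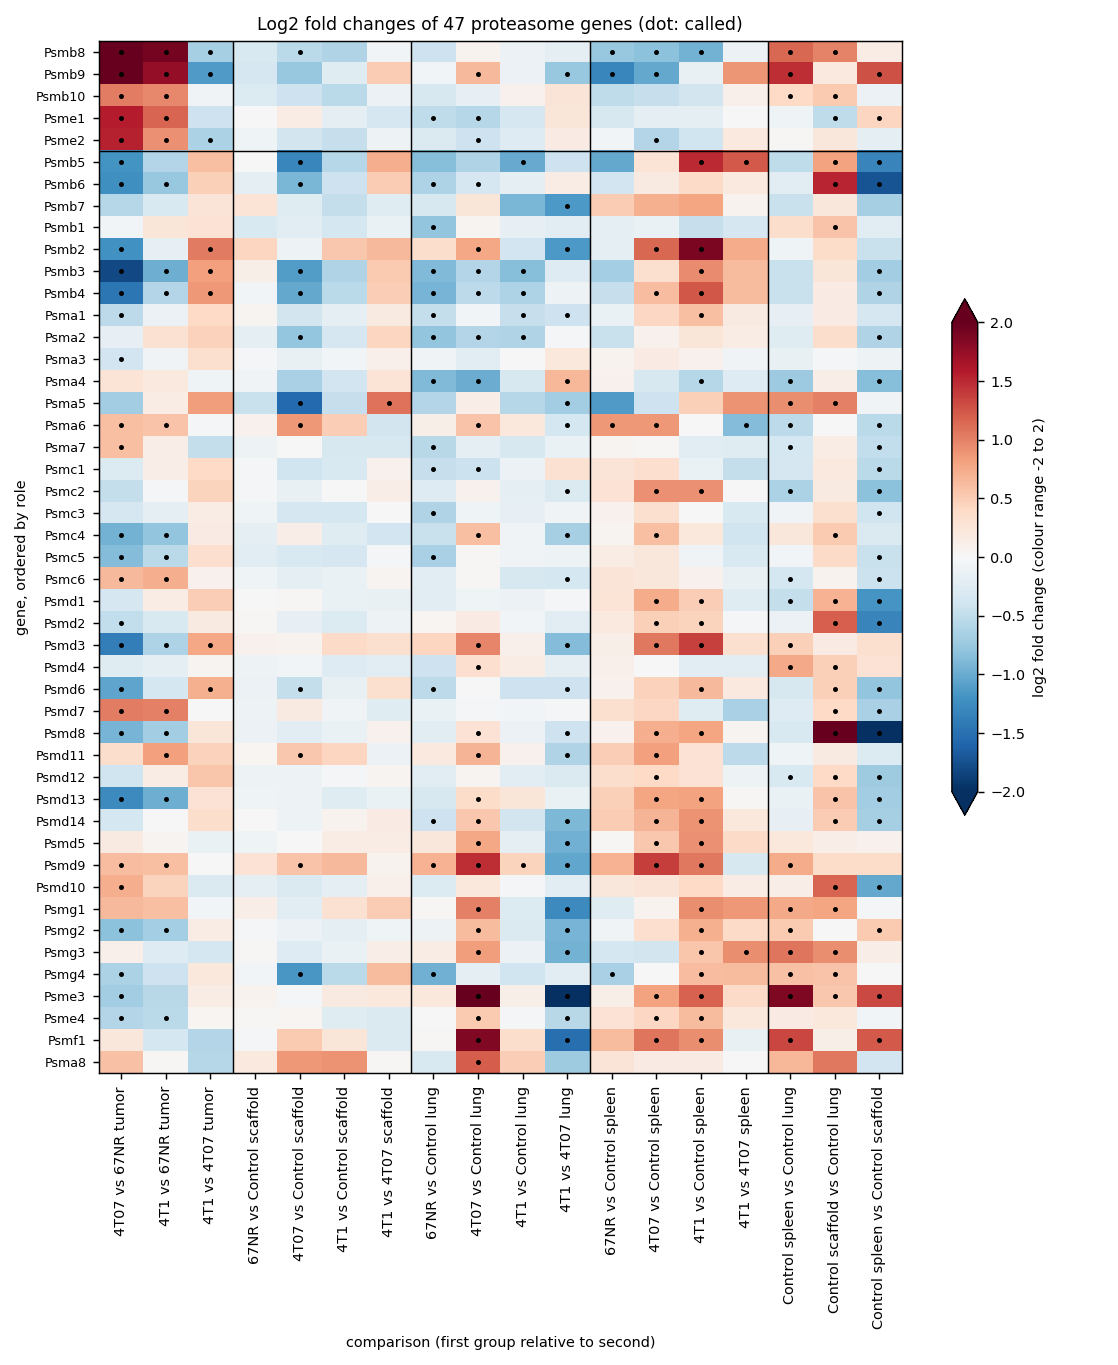
Log2 fold changes (colour, range -2 to 2) of the 47 tested members (rows, ordered by role, immunoproteasome genes above the line) in 18 comparisons (columns, first group relative to second). A dot marks a call. The top 5 rows are called higher in both comparisons with 67NR tumors, while 18 members are called lower in 4T07 against 67NR tumors.

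In tumor-free mice the tissues already differed. Control spleens had more Psmb9 than Control lungs (log2 fold change 1.48 ± 0.27, adjusted p = 0.000267) and more Psmb8 (1.14 ± 0.23, 0.000672), at 124.1, 106.6 and 56.3 CPM against 33.0, 39.3 and 34.0 CPM for Psmb9 and at 149.9, 134.5 and 85.2 CPM against 62.2, 69.1 and 41.4 CPM for Psmb8. The groups did not overlap in either gene. Psmb10 gave 0.39 ± 0.17 (0.0695), lost without Control lung 4 (0.144) or 6 (0.222) or Control spleen 8 (0.132) or 9 (0.193). Psme1 (-0.08 ± 0.13, 0.643) and Psme2 (0.03 ± 0.24, 0.941) did not differ beyond their error, and Psme2 with Psme2b added was higher by 0.50 ± 0.16 (0.0187). Psme3 (1.86 ± 0.15, 8.64e-08) and Psmf1 (1.34 ± 0.19, 3.45e-05) were the other members highest in spleen, and Psma4 (-0.73 ± 0.18, 0.00346) and the ATPase Psmc2 (-0.64 ± 0.17, 0.00503) the lowest. In all, 13 members were higher and 7 lower, or 27.7% and 14.9%, against 27.8% and 28.5% of genes, and all 4 chaperones of 20S assembly were among the higher. The constitutive catalytic genes did not pass, with Psmb6 -0.22 ± 0.16 (0.286), Psmb5 -0.51 ± 0.35 (0.242) and Psmb7 -0.44 ± 0.41 (0.398), though Psmb5 passed without Control lung 6 (0.0971) or Control spleen 7 (0.0355) and Psmb7 without Control spleen 9 (0.0671).

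Control scaffolds, which hold tissue grown into the implant, had the most Psmb6. It stood at 527.5, 471.6 and 450.7 CPM against 201.3, 212.3 and 176.3 CPM in Control lungs and 146.0, 180.0 and 170.1 CPM in Control spleens. Against lung, 21 members were higher and 1 lower (44.7% and 2.13%, beside 23.7% and 25.6% of genes), led by the non-ATPase subunits Psmd8 (2.13 ± 0.16, adjusted p = 5.35e-08) and Psmd2 (1.20 ± 0.14, 5.22e-06), with Psmb6 at 1.52 ± 0.16 (2.05e-06) and Psmb8 at 0.99 ± 0.23 (0.00235). The lower one was Psme1 (-0.51 ± 0.14, 0.00696). Psmb10 (0.52 ± 0.17, 0.0235) was lost without Control lung 6 (0.102), and Psmb5 (0.81 ± 0.32, 0.0574) without that lung (0.229) or Control scaffold 2 (0.141) or 3 (0.116). Not past the threshold were Psmb9 0.20 ± 0.27 (0.586), Psme2 0.22 ± 0.24 (0.494) and Psmb7 0.23 ± 0.38 (0.668).

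Against scaffold, Control spleens had 5 members higher and 22 lower (10.6% and 46.8%, beside 25.5% and 25.9% of genes). The higher included Psmb9 (1.28 ± 0.26, adjusted p = 0.00105), Psme3 (1.32 ± 0.15, 3.88e-06), Psmf1 (1.23 ± 0.19, 0.000102) and Psme1 (0.42 ± 0.14, 0.0191), and 21 of the 31 core genes were lower, led by Psmd8 (-2.44 ± 0.17, 1.68e-08), Psmb6 (-1.73 ± 0.17, 5.78e-07), Psmb5 (-1.32 ± 0.34, 0.00545) and Psmd2 (-1.31 ± 0.14, 2.24e-06). Psmb8 (0.15 ± 0.22, 0.626), Psmb10 (-0.12 ± 0.17, 0.591), Psme2 (-0.20 ± 0.24, 0.544) and Psmb7 (-0.67 ± 0.41, 0.203) did not pass, though without Control spleen 7 Psme2 did (0.0526) and without Control spleen 9 Psmb7 did (0.0285).

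In the spleens of 4T07 and 4T1 mice the called immunoproteasome genes were lower than in Control spleens, while all but 1 of the other called members were higher. Psmb8 stood at 149.9, 134.5 and 85.2 CPM in Control, at 63.7, 73.1 and 98.9 CPM in 67NR, at 61.2, 75.9 and 48.4 CPM in 4T07 and at 56.6, 53.6 and 51.9 CPM in 4T1 spleens. All 4T07 and 4T1 spleens lay below all Control spleens, and 67NR overlapped Control. The log2 fold change against Control was -0.82 ± 0.23 in 4T07 (adjusted p = 0.0141) and -0.94 ± 0.23 in 4T1 (0.0058), and both calls held without any 1 library. Psmb9 stood at 124.1, 106.6 and 56.3 CPM in Control, at 58.4, 39.9 and 26.0 CPM in 67NR, at 54.6, 40.4 and 30.6 CPM in 4T07 and at 88.5, 77.4 and 53.0 CPM in 4T1 spleens. It was lower than in Control in 4T07 spleens (-1.03 ± 0.31, 0.0219), and in 4T1 it gave -0.15 ± 0.30 (0.755).

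The 4T07 spleens had 18 members higher and 3 lower than Control, or 38.3% and 6.38%, against 16.0% and 16.5% of all genes, and the 3 lower ones were Psmb9, Psmb8 and Psme2 (-0.59 ± 0.23, adjusted p = 0.0668). The Psme2 call was lost without Control spleen 7 (0.391) or 4T07 spleen 29 (0.108) or 30 (0.201), and Psme2 with Psme2b added was lower by -0.98 ± 0.17 (0.000375). Psmb10 (-0.47 ± 0.22, 0.135), which passed without Control spleen 7 (0.0955) or 4T07 spleen 29 (0.0155), and Psme1 (-0.18 ± 0.18, 0.497) did not pass. Among the higher members were 8 of 11 non-ATPase subunits, both nuclear activators, Psmf1 (1.07) and the chaperone Psmd9 (1.38 ± 0.22, 0.000251). Psmb2 (1.14 ± 0.39, 0.0395) was lost without Control spleen 8 (0.132) or 9 (0.124) or 4T07 spleen 28 (0.202). Of the constitutive catalytic genes, Psmb5 0.27 ± 0.36 (0.628), Psmb6 0.18 ± 0.18 (0.49) and Psmb7 0.72 ± 0.41 (0.214) did not pass, Psmb7 doing so without Control spleen 9 (0.0406). The median was -0.59 over the 5 genes, 0.40 over the other 42 and -0.09 over all genes.

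The 4T1 spleens had 22 members higher and 2 lower, or 46.8% and 4.26%, against 18.0% and 17.1% of genes. Psmd3, a non-ATPase subunit, stood at 56.9, 57.7 and 58.0 CPM in Control and at 125.6, 124.1 and 124.5 CPM in 4T1 spleens (1.37 ± 0.15, adjusted p = 6.54e-06). Psmb2 was higher by 1.89 ± 0.39 (0.00162) and Psmb5 by 1.49 ± 0.34 (0.00372), at 17.0, 9.80 and 19.2 CPM against 9.71, 6.46 and 3.23 CPM, while Psmb6 (0.38 ± 0.18, 0.123) and Psmb7 (0.78 ± 0.41, 0.172) did not pass, Psmb7 doing so without Control spleen 9 (0.0384). All 4 chaperones of 20S assembly, both nuclear activators and 7 of 11 non-ATPase subunits were higher. The lower ones were Psmb8 and Psma4 (-0.58 ± 0.23, 0.0766), the latter lost without Control spleen 7 (0.199) or 8 (0.116) or 4T1 spleen 40 (0.28) or 41 (0.184). Psmb10 (-0.37 ± 0.22, 0.227), Psme1 (-0.19 ± 0.18, 0.48) and Psme2 (-0.39 ± 0.23, 0.211) did not pass, Psme2 doing so without Control spleen 9 (0.0447) and, with Psme2b added, at -0.91 ± 0.17 (0.000597).

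The 67NR spleens had 1 member higher and 3 lower, against 3.69% and 2.54% of genes. These were Psma6 (0.87 ± 0.25, adjusted p = 0.0705), Psmb9 (-1.30 ± 0.31, 0.0337), Psmb8 (-0.75 ± 0.23, 0.0811) and the chaperone Psmg4 (-0.65 ± 0.21, 0.0964). All 4 calls depended on single libraries: without Control spleen 7 the adjusted p was 0.225 for Psma6, 0.127 for Psmb9, 0.282 for Psmb8 and 0.174 for Psmg4, and without Control spleen 8 it was 0.319, 0.164, 0.271 and 0.288. Without 67NR spleen 16, 17 or 18 from 2 to 3 of the 4 were lost, at adjusted p-values of 0.131 to 0.311. Without Control spleen 9 all 4 held, and 11 members were called, Psmb5 (-1.03 ± 0.39, 0.168 with all libraries) among them at 0.0284. Of the rest of the 8 catalytic and PA28 genes, Psmb10 -0.51 ± 0.22 (0.23), Psme1 -0.33 ± 0.18 (0.381), Psme2 -0.05 ± 0.22 (0.94), Psmb6 -0.38 ± 0.18 (0.269) and Psmb7 0.50 ± 0.41 (0.588) did not pass.

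Between 4T1 and 4T07 spleens 2 members were higher and 1 lower (1.97% and 2.26% of genes). They were Psmb5 (1.22 ± 0.34, adjusted p = 0.0732), Psmg3 (0.93 ± 0.21, 0.0275) and Psma6 (-0.86 ± 0.25, 0.0889), and all were lost without 4T07 spleen 29, at adjusted p-values of 0.262, 0.146 and 0.168. Psmb5 was lost also without 4T07 spleen 30 (0.197) or 4T1 spleen 40 (0.204) or 42 (0.289), Psmg3 without 4T1 spleen 41 (0.102), and Psma6 without 4T07 spleen 30 (0.358) or 4T1 spleen 40 (0.137), 41 (0.228) or 42 (0.256). Psmb9 gave 0.88 ± 0.31 (0.162). The others gave Psmb8 -0.12 ± 0.23 (0.849), Psmb10 0.10 ± 0.22 (0.879), Psme1 -0.004 ± 0.184 (1.0), Psme2 0.20 ± 0.23 (0.719), Psmb6 0.20 ± 0.18 (0.618) and Psmb7 0.07 ± 0.39 (0.966). No MHC class I or interferon gene was lower and 1, Gbp5, was higher (0.94 ± 0.26, 0.0739), while the partners Uba1 (-0.86 ± 0.25, 0.0853) and Usp14 (-0.69 ± 0.15, 0.0267) were lower.

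The index was 0.23 ± 0.26 in Control spleens against -0.38 ± 0.05 in 67NR, -0.78 ± 0.16 in 4T07 and -0.57 ± 0.15 in 4T1 spleens (SD, n = 3), a description without a test, and every spleen of a tumor-bearing mouse lay below every Control spleen. Cell markers differed between these spleens as well, B cell and neutrophil markers in 4T07 and 4T1 but not in 67NR spleens. The B cell sum was 640.5 to 803.6 CPM in Control, 691.4 to 749.8 CPM in 67NR, 265.4 to 354.2 CPM in 4T07 and 146.5 to 249.3 CPM in 4T1 spleens, with 3 of 4 markers lower in 4T07 and in 4T1 and 0 in 67NR. T cell markers were lower for 5 of 5 in 4T07, 4 of 5 in 4T1 and 1 of 5 in 67NR spleens, and summed to 218.7 to 314.7 CPM in Control, 218.6 to 253.4 CPM in 67NR, 100.9 to 128.9 CPM in 4T07 and 100.5 to 128.1 CPM in 4T1. All 6 neutrophil markers were higher in 4T07 and 4T1, at sums of 23957 to 29474 and 12088 to 31754 CPM against 929.7 to 1637 CPM in Control and 956.3 to 1210 CPM in 67NR. Of proliferation markers 4 of 5 were higher in 67NR and 5 of 5 in 4T07 and 4T1, at sums of 2710 to 2942, 2654 to 3671 and 2833 to 3022 CPM against 1307 to 1800 CPM. NK cell markers were lower for 3 of 4 in 67NR and 4 of 4 in 4T07 and 4T1 spleens, and summed to 150.7 to 205.3 CPM in Control, 73.7 to 130.5 CPM in 67NR, 47.5 to 79.9 CPM in 4T07 and 36.6 to 71.3 CPM in 4T1. Of 5 macrophage markers 2, 3 and 4 were lower in 67NR, 4T07 and 4T1, at sums of 1266 to 1387, 910.5 to 983.3 and 607.8 to 859.5 CPM against 1329 to 1912 CPM. Of 4 pan-immune markers 2 were lower in each, at sums of 1818 to 2384, 1621 to 1674 and 1501 to 1650 CPM against 2675 to 3249 CPM. Their part in the members' values was not tested. Of the 32 MHC class I and interferon genes 12 were lower and 5 higher in 4T07 spleens, 15 lower and 5 higher in 4T1, and 3 lower in 67NR. Of all genes 16.5% were lower and 16.0% higher in 4T07 spleens, 17.1% and 18.0% in 4T1, and 2.54% lower in 67NR. The numbers of listed genes called higher were near these shares.

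In lungs the 4T07 mice stood apart. Psme3, the gamma subunit of PA28, stood at 19.7, 17.3 and 19.9 CPM in Control, at 22.2, 24.2 and 24.2 CPM in 67NR, at 82.4, 94.8 and 74.6 CPM in 4T07 and at 21.9, 19.6 and 19.9 CPM in 4T1 lungs. The 4T07 lungs lay far above the rest, by 2.21 ± 0.15 on the log2 scale against Control (adjusted p = 2.78e-10). Psmf1 stood at 40.6, 37.7 and 41.8 CPM in Control and at 163.2, 154.6 and 99.4 CPM in 4T07 lungs (1.86 ± 0.16, 1.41e-08). Of 47 members 19 were higher and 8 lower than in Control lungs, or 40.4% and 17%, against 25.2% and 25.0% of all genes. The higher ones included both nuclear activators, 3 of 4 chaperones of 20S assembly, 6 of 11 non-ATPase subunits and Psma8 (1.20).

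Of the immunoproteasome genes in 4T07 lungs, Psmb9 was higher (0.64 ± 0.16, adjusted p = 0.00325), at 59.3, 54.9 and 44.3 CPM against 33.0, 39.3 and 34.0 CPM, and Psme1 lower (-0.57 ± 0.16, 0.0049), at 79.4, 70.6 and 80.7 CPM against 124.5, 122.6 and 111.4 CPM. Neither pair overlapped, and both calls held without any 1 library. Psme2 (-0.42 ± 0.16, 0.0384) was lost without Control lung 4 (0.267) or 4T07 lung 25 (0.158), and with Psme2b added it gave -0.13 ± 0.15 (0.548). Psmb8 (0.07 ± 0.17, 0.761) and Psmb10 (-0.17 ± 0.17, 0.468) did not pass. Psma4 was the lowest of the other members (-0.99 ± 0.16, 2.52e-05), and Psmb3 (-0.59 ± 0.20, 0.0214) was lost without Control lung 4 (0.104) or 5 (0.146) or 4T07 lung 25 (0.128). Psmb6 gave -0.34 ± 0.16 (0.0874), lost without Control lung 4 (0.214) or 5 (0.228) or 4T07 lung 26 (0.151) or 27 (0.329), by DESeq2 (0.113), with its size factors (0.108), with 10 counts in every sample (0.106) and with the 2 compared groups alone (0.142). Psmb5 gave -0.60 ± 0.34 (0.161), called without Control lung 6 (0.0487) or without a count filter (0.0719), and Psmb7 gave 0.24 ± 0.35 (0.616).

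**Figure D5:**
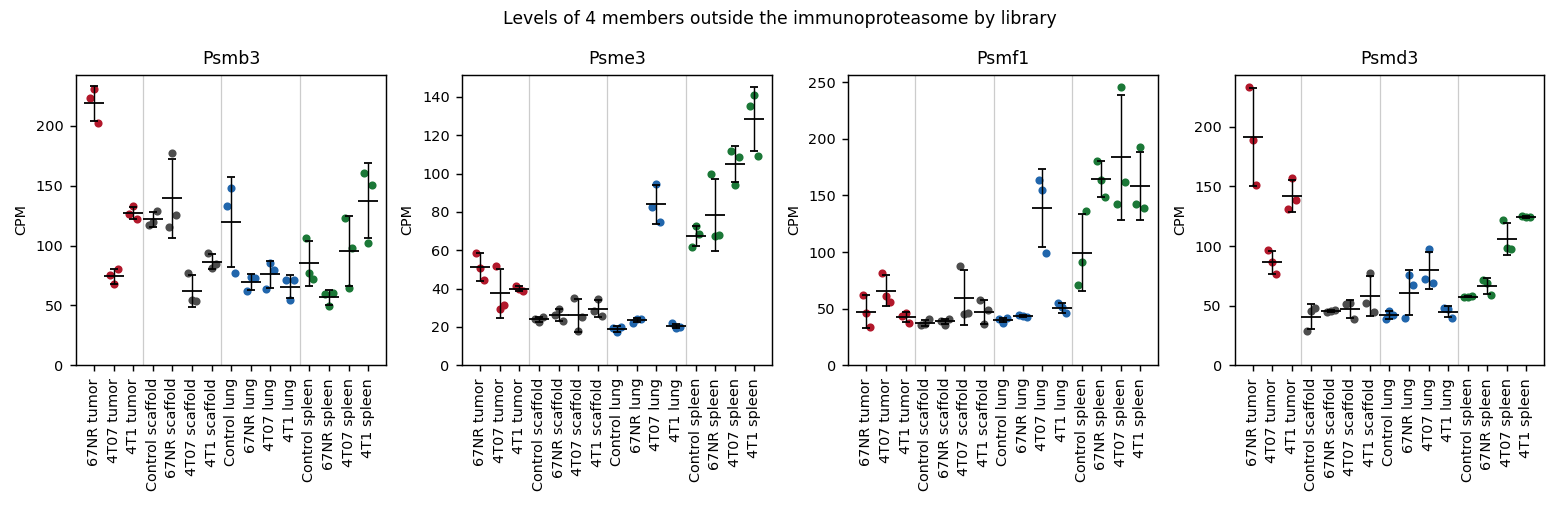
Levels in CPM (vertical axis) of Psmb3, Psme3, Psmf1 and Psmd3 in 45 libraries by group (horizontal axis). Points are libraries, lines are means and bars are SD (n = 3). Psme3 sits at 74.6 to 94.8 CPM in 4T07 lungs and 17.3 to 24.2 CPM in the other lungs, and Psmb3 at 202.7 to 231.1 CPM in 67NR tumors.

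The 4T1 lungs differed from the 4T07 lungs in 23 members, 1 higher and 22 lower (2.13% and 46.8%, beside 22.8% and 21.4% of genes). Psme3 was lower by -2.08 ± 0.15 (adjusted p = 7.66e-10), Psmf1 by -1.50 ± 0.16 (2.8e-07), Psmb7 by -1.15 ± 0.38 (0.0203) and Psmb9 by -0.76 ± 0.16 (0.000866), and the higher one was Psma4 (0.66 ± 0.15, 0.00182). Not past the threshold were Psmb8 -0.19 ± 0.17 (0.417), Psmb10 0.25 ± 0.17 (0.276), Psme1 0.24 ± 0.16 (0.238), Psme2 0.17 ± 0.16 (0.46), Psmb5 -0.41 ± 0.35 (0.397) and Psmb6 0.15 ± 0.16 (0.495). Of the 32 MHC class I and interferon genes 13 were lower and 5 higher, with Cxcl9 (-2.76 ± 0.40, 1.18e-05), Isg15 (-1.54 ± 0.21, 5.93e-06) and the class I transactivator Nlrc5 (-1.46 ± 0.24, 5.87e-05) lowest and Ifngr2 (0.82 ± 0.21, 0.00328), Gbp2 (0.79 ± 0.17, 0.00116) and Tapbpl (0.67 ± 0.16, 0.00228) highest. Of the partners 6 were lower, among them Ubqln4 (-1.15 ± 0.18, 4.32e-05) and Uba1 (-1.09 ± 0.22, 0.000494), and 4 higher, led by the assembly factor Pomp (0.53 ± 0.20, 0.0403), Ddi2 (0.39 ± 0.14, 0.0356) and Nfe2l2 (0.38 ± 0.14, 0.0409).

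Against Control, 4T1 lungs had 1 member higher and 5 lower (7.45% and 4.34% of genes), and 0 of the 5 immunoproteasome genes were called. Psmb3 was lower (-0.85 ± 0.20, adjusted p = 0.0109). Psmb5 (-1.01 ± 0.33, 0.0699) and Psmb4 (-0.63 ± 0.20, 0.0633) were lost without Control lung 4 (0.22 and 0.218) or 5 (0.249 and 0.23) or 4T1 lung 38 (0.319 and 0.265), and Psmd9 (0.44 ± 0.15, 0.0719) was lost at adjusted p-values of 0.109 to 0.236 without Control lung 4, 5 or 6 or 4T1 lung 37 or 38. Across the 6 single libraries left out, the count ran from 1 (without Control lung 4 or 5 or 4T1 lung 38) to 10 (without Control lung 6 or 4T1 lung 39). The catalytic and PA28 genes that did not pass were Psmb8 -0.12 ± 0.17 (0.76), Psmb9 -0.12 ± 0.17 (0.736), Psmb10 0.09 ± 0.17 (0.839), Psme1 -0.33 ± 0.15 (0.217), Psme2 -0.25 ± 0.16 (0.38), Psmb6 -0.19 ± 0.16 (0.542) and Psmb7 -0.91 ± 0.37 (0.153).

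The 67NR lungs had 1 member higher and 15 lower than Control (2.13% and 31.9%, beside 6.51% and 6.25% of genes), 13 of the 15 in the constitutive core. Psmb4 (-0.92 ± 0.20, 0.00835), Psmb6 (-0.63 ± 0.16, 0.0186) and Psmg4 (-0.96 ± 0.19, 0.00419) were lower and Psmd9 (0.69 ± 0.14, 0.00634) higher. The count was 8 without Control lung 4 and 10 without 67NR lung 15. Psme1 (-0.52 ± 0.15, 0.0432) was lost without Control lung 4 (0.182) or 5 (0.134) or 67NR lung 14 (0.172) or 15 (0.242), and Psmb8 (-0.41 ± 0.17, 0.152) was called without Control lung 6 (0.0132), as were Psme2 -0.29 ± 0.16 (0.276) at 0.077 and Psmb5 -0.86 ± 0.33 (0.114) at 0.0341, the latter also without 67NR lung 14 (0.0925). Psmb5 was called there as well by DESeq2 (0.0961), with its size factors (0.0991), without a count filter (0.0216), with 10 counts in every sample (0.0876) and with the 2 compared groups alone (0.0894). Not called under any library left out were Psmb9 -0.06 ± 0.17 (0.864), Psmb10 -0.32 ± 0.17 (0.284) and Psmb7 -0.32 ± 0.35 (0.648). In 67NR lungs ribosomal protein genes took 2.08 to 2.37% of counts against 2.87 to 4.5% in Control lungs, and 3 of 4 NK cell markers (sums of 60.7 to 80.2 against 99.4 to 146.8 CPM), 2 of 4 pan-immune markers (483.6 to 527.1 against 569.2 to 764.4 CPM) and 2 of 5 macrophage markers (318.4 to 337.1 against 336.5 to 385.3 CPM) were lower. Their part in the members' values was not tested.

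The 4T07 lungs also differed in their cell markers. All 5 proliferation and all 5 erythroid markers were higher than in Control lungs, at sums of 1739 to 2482 CPM against 102.1 to 139 CPM and of 16804 to 20636 CPM against 3267 to 5402 CPM, as were 4 of 4 B cell, 5 of 5 T cell and 6 of 6 neutrophil markers. All 4 lung epithelium markers were lower, at 5064 to 13053 CPM against 26282 to 29840 CPM, as were all 3 endothelial ones, at 637.4 to 1014.4 CPM against 2195 to 2319 CPM. In 4T1 lungs neutrophil markers summed to 11274 to 26651 CPM, with 6 of 6 higher than in Control lungs (212.7 to 273.0 CPM), while 0 of 4 lung epithelium markers differed. No marker of these lists was at 0 throughout a lung group, and their part in the members' values was not tested.

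In scaffolds 1 of the 5 immunoproteasome genes was called in 1 of 4 comparisons. Against Control, 4T07 scaffolds had 3 members higher and 9 lower, or 6.38% and 19.1%, against 9.22% and 8.50% of genes. Among the catalytic genes Psmb5 stood at 8.195, 4.91 and 6.21 CPM against 12.0, 16.0 and 15.6 CPM (-1.30 ± 0.22, adjusted p = 0.00177) and Psmb6 at 303.3, 262.2 and 289.4 CPM against 527.5, 471.6 and 450.7 CPM (-0.91 ± 0.20, 0.0071), neither overlapping. The alpha subunit Psma5 (-1.55 ± 0.26, 0.00176) and Psmg4 (-1.17 ± 0.21, 0.00266) were the lowest, and the alpha subunit Psma6 (0.87 ± 0.15, 0.00191) the highest. Psmd9 (0.57 ± 0.19, 0.0581) was lost without Control scaffold 1 (0.164) or 3 (0.177) or 4T07 scaffold 22 (0.118) or 23 (0.163). Psmb8 (-0.54 ± 0.15, 0.0303), at 76.2, 80.4 and 68.8 CPM against 91.2, 106.9 and 98.5 CPM, was lost without Control scaffold 2 (0.103) or 4T07 scaffold 24 (0.11), and Psmb9 (-0.75 ± 0.30, 0.111) was called without the latter (0.0766), by DESeq2 (0.0691), without a count filter (0.0062), with 10 counts in every sample (0.0894) and with the 2 compared groups alone (0.0668). Psmb10 (-0.41 ± 0.28, 0.392), Psme1 (0.15 ± 0.17, 0.652), Psme2 (-0.37 ± 0.23, 0.354) and Psmb7 (-0.24 ± 0.31, 0.702) did not pass. All 6 neutrophil markers were higher there. They summed to 1895, 2185 and 8393 CPM against 258.3, 429.6 and 1696 CPM, the highest in each group being 4T07 scaffold 22 and Control scaffold 2. Ribosomal protein genes took 2.33 to 3.78% of counts against 4.75 to 5.18%. Their part was not tested.

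Scaffolds of 67NR mice had 0 members called by edgeR, where 0% of genes were called, with 0 members at an unadjusted p under 0.05, and 0 called by DESeq2 (1 unadjusted). The log2 fold changes of the 8 catalytic and PA28 genes there ran from -0.33 (Psmb9) to 0.28 (Psmb7), with edgeR adjusted p-values of 0.998 to 0.999. Scaffolds of 4T1 mice had 0 members called by edgeR, where 0.0226% of genes were, with 9 members at an unadjusted p under 0.05, and DESeq2 called 5 (12 unadjusted). Psmb8 stood at 64.7, 68.1 and 78.1 CPM in 4T1 scaffolds, below each Control scaffold, at -0.60 ± 0.15 (adjusted p = 0.207 by edgeR and 0.011 by DESeq2). The others gave Psmb9 -0.24 ± 0.29 (0.791), Psmb10 -0.53 ± 0.28 (0.466), Psme1 -0.18 ± 0.17 (0.73), Psme2 -0.47 ± 0.23 (0.444), Psmb5 -0.57 ± 0.21 (0.304), Psmb6 -0.41 ± 0.20 (0.419) and Psmb7 -0.48 ± 0.32 (0.577) by edgeR. Between 4T1 and 4T07 scaffolds 1 member was higher and 0 lower (1.30% and 0.840% of genes): Psma5 (1.09 ± 0.26, 0.0694), lost without 4T07 scaffold 22 (0.11), 23 (0.186) or 24 (0.14) or 4T1 scaffold 35 (0.112) or 36 (0.156). At an unadjusted p under 0.05 it was 12 members, and DESeq2 called 4. Psmb9 gave 0.51 ± 0.30 (0.443), Psmb5 0.72 ± 0.23 (0.145) and Psmb6 0.50 ± 0.20 (0.232), the last called without 4T1 scaffold 35 (0.0447). Not past the threshold either were Psmb8 -0.06 ± 0.15 (0.897), Psmb10 -0.12 ± 0.28 (0.887), Psme1 -0.33 ± 0.17 (0.387), Psme2 -0.10 ± 0.23 (0.895) and Psmb7 -0.24 ± 0.32 (0.779). Of the listed genes Cxcl9 (-1.09 ± 0.25, 0.0615) and Tap1 (-1.01 ± 0.25, 0.0697) were lower and the 19S subunit gene Sem1 (1.09 ± 0.18, 0.0178) higher.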

How the data were processed

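The authors deposited 1 table of counts per gene symbol, whole numbers without normalization, for 45 libraries made with a QuantSeq 3' kit with unique molecular identifiers. The submitters' processing notes name Trim Galore 0.5.0, STAR 2.6.0 and featureCounts. Genome build, annotation, strand setting and collapse of identifiers are not given in the sources used here. The 55487 lines held 120 that repeat a symbol, added up to 55367 symbols. Depth was 3491888 to 8175380 counts a library.

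Tests across genes used the quasi-likelihood F test of edgeR 4.0.16 in R 4.3.3 with TMM scaling, 1 fit per tissue with all its groups, 1 over Control tissues and 1 for differences between tissues, genes over 10 counts, Benjamini-Hochberg adjusted over all genes tested. A gene was called at an adjusted p under 0.05 between tumors, or 0.10 for the other comparisons, with no fold requirement. Errors are standard errors of log2 fold changes. Alternatives were DESeq2 1.42.0, its size factors, other filters, a fold over 2, fits of the 2 compared groups and each library left out. Where that leaves 2 libraries in a group, the spread is pooled over groups. Adding Psme2b to Psme2 was chosen after seeing the data. The fits were tested on simulated data.

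The text names the 5 immunoproteasome genes and Psmb5, Psmb6 and Psmb7 throughout, members near 0 counts, in each comparison the 2 other called members most changed in each direction, and of the pathway lists the 3 most changed called genes each way in tumors and in 4T1 against 4T07. Other members and Tap1, named beside these, were picked after their values were seen. Members and lists were chosen with earlier results of these data known. The study states 3 mice a condition. The labels do not say which tissues share a mouse, so comparisons between tissues treat libraries as separate. Motif searches used windows of 250 bases. Some genes that this rule names are not reported here.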

Additional observations from a re-analysis of the deposited data

Results flagged for a closer look

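The difference between 4T1 and 4T07 mice was not the same in every tissue for 3 of the 5 immunoproteasome genes, by the interaction test of edgeR. Of all genes 5.40% differed between tumor and scaffold, 24.9% between tumor and lung and 7.33% between tumor and spleen. Between tumor and lung 23 of 47 members differed, so a call there is not particular to the immunoproteasome genes. For Psmb9, log2(4T1/4T07) was lower in tumor than in scaffold by -1.62 (adjusted p = 0.0211) and lower in tumor than in spleen by -1.94 (adjusted p = 0.00389), and both held without any 1 library. For Psme1 it was lower in tumor than in lung by -0.68 (adjusted p = 0.0682), and for Psme2 by -0.83 (adjusted p = 0.0629), or -0.70 with Psme2b added (adjusted p = 0.0738). These 2 were lost on leaving out single libraries, at adjusted p-values of 0.101 to 0.175 and 0.106 to 0.157.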

How the results depend on the processing

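No called value reversed. Of 2772 recomputed values of 220 named ones, 2589 kept their side of the threshold, 128 lost a call and 55 gained one, and 77 values called in neither fit changed sign. Of 37 calls of the 5 immunoproteasome genes 24 held under every setting and 3 were lost other than by leaving out a library. No paired analysis was possible because the library numbers 1 to 45 are unique.

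With a fold change over 2 as well, members called fell in tumors from 29 to 14 (4T07 against 67NR), 20 to 4 (4T1 against 67NR) and 8 to 2 (4T1 against 4T07), in 4T07 scaffolds from 12 to 5, in lungs against Control from 16 to 0 (67NR), 27 to 5 (4T07) and 6 to 1 (4T1) and in 4T1 against 4T07 from 23 to 6, in spleens from 4 to 1, 21 to 5, 24 to 6 and 3 to 1 in the same order, and between Control tissues from 20 to 5 (spleen and lung), 22 to 5 (scaffold and lung) and 27 to 9 (spleen and scaffold). DESeq2 called 5 members in 4T1 against Control scaffolds (0 in edgeR), 4 in 4T1 against 4T07 scaffolds (1), 11 in 4T1 lungs (6), 8 in 67NR spleens (4), 6 in 4T1 against 4T07 spleens (3) and 2 in the tumor-scaffold interaction (1). Without a count filter these were 3 and 3 in scaffolds, 9 in 67NR spleens and 11 in 4T1 against 4T07 spleens. With 10 counts in every sample they were 2 in 4T1 against 4T07 scaffolds, 11 in 4T1 lungs, 7 and 5 in those spleens and 2 in the interaction. With only the 2 compared groups they were 15 in 4T1 against 4T07 tumors, 0 in those scaffolds and 10 in 4T1 lungs. The cause was not tested.

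Leaving out 1 library gave 5 to 7 calls in 4T1 against 4T07 tumors, 0 to 3 in those scaffolds, 8 to 21 in 67NR lungs, 1 to 10 in 4T1 lungs, 0 to 11 in 67NR spleens, 0 to 8 in 4T1 against 4T07 spleens, 13 to 23 between Control spleen and lung, and 1 to 3 and 3 to 9 in the interactions with scaffold and spleen.

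The index difference from 3 catalytic pairs alone was 3.09 and 2.06 for 4T07 and 4T1 against 67NR tumors (2.37 and 1.42 as defined). Against Control, in the order 67NR, 4T07, 4T1, it was -0.29, 0.21 and -0.07 in scaffolds (-0.14, -0.09, -0.27) and 0.30, 0.39 and 0.53 in lungs (0.05, -0.12, 0.10). It was 0.14 and -0.16 for 4T1 against 4T07 in lungs and spleens (0.22, 0.20), -1.29 in 4T1 spleens (-0.81), and 1.32, -0.28 and 1.61 between Control tissues (0.73, -0.18, 0.91). It turned sign in 4T07 scaffolds, 4T07 lungs and 4T1 against 4T07 spleens. With medians it was 2.52 in 4T07 tumors, 0.01, 0.07 and -0.09 in scaffolds, -0.03 and 0.32 in 4T07 and 4T1 lungs, 0.36 for 4T1 against 4T07 lungs, -1.25 in 4T07 spleens, and 1.04 and 0.15 for Control spleen and scaffold against lung, turning sign in 67NR and 4T07 scaffolds and in Control scaffold against lung. Psmb7, Psma8 and Psmb11 are limited by depth.

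Other single calls changed with a setting other than a library left out or the fold requirement, here with adjusted p. DESeq2 added Psmb6 in 4T1 against 4T07 tumors (0.0397), Psmb8 in 4T1 scaffolds (0.011), Psmb5 in 4T1 against 4T07 scaffolds (0.0894), and the interactions of Psmb8 with lung (0.0848) and Psme2 with spleen (0.0868). Without a count filter Psmb8 in 4T1 scaffolds (0.0705), Psmb5 in 67NR spleens (0.0344) and Psmb9 in 4T1 against 4T07 spleens (0.00321) were added, and Psmd9 in 4T1 lungs (0.158) and the Psmb7 interaction with lung (0.181) lost. With 10 counts in every sample Psmb5 in 4T1 against 4T07 scaffolds (0.0967), Psmb7 in 4T1 lungs (0.0964), Psmb10 in 4T07 (0.0652) and 4T1 spleens (0.0809), Psme2 in 4T1 spleens (0.0759), and the interactions of Psmb8 with lung (0.0541) and Psme2 with spleen (0.0746) were added. With the 2 compared groups alone Psmb6 in 4T1 against 4T07 tumors (0.0412), Psme1 in 4T1 lungs (0.087) and Psmb6 in 4T1 spleens (0.0938) were added, and Psma5 in 4T1 against 4T07 scaffolds (0.172), Psmb8 in 67NR spleens (0.105), Psme2 in 4T07 spleens (0.131) and Psma6 in 4T1 against 4T07 spleens (0.108) lost. With Psme2b added Psme2 was called between Control scaffold and lung (0.0781).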
